A study of Rattus norvegicus with 8 samples.

Results

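The macrophage marker genes described here are Csf1r, C1qa, C1qb, C1qc, Cd68, Mrc1 and Cd163, measured in vessel walls of newborn rats, the ductus arteriosus (DA) and the aorta. They were chosen by symbol from a list of known macrophage markers, through probe sets that the array annotation pairs with 1 symbol, and make up 7 of the 14506 genes tested. Each of the 7 had 1 probe set, so no choice between probe sets was needed. Gene expression was measured on 8 Affymetrix Rat Gene 1.0 ST arrays, 2 for each of 4 groups: Fischer344 (F344) DA, F344 aorta, Brown-Norway (BN) DA and BN aorta. Both are inbred strains of rat, and all animals were full-term neonates taken 1 h after birth with no treatment named in the labels. RNA was extracted from pooled tissues with 150 ng labelled per array. The labels do not say whether the 2 arrays of a group came from separate pools or litters, so each p-value reflects only array-to-array spread, which may be technical. Values are log2 array signals, on which a difference of 1 is 2-fold, and levels of different genes cannot be set against each other because each probe set binds with its own strength.

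Macrophages of the vessel wall sit mainly in the outer coat, the adventitia, and take up dead cells, proteins and lipids. They depend on the receptor Csf1r, which binds the growth factors Csf1 and Il34 and carries signals for survival and division. C1qa, C1qb and C1qc encode the chains of C1q, the part of the first complement component that recognises antibodies and dying cells. Macrophages are a main source of C1q. Cd68 is a heavily glycosylated protein of the macrophage lysosome, Mrc1 is the mannose receptor of resident-type macrophages, and Cd163 takes up complexes of haemoglobin and haptoglobin. After birth the DA, which joins the pulmonary artery to the aorta in the fetus, contracts and is remodelled, while the aorta remains a conduit for life.

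Position and promoter sequence were not used to choose the members. In the RefSeq gene table C1qb, C1qc and C1qa are direct neighbours in that order, 3 protein-coding genes in a row between Ephb2 and Epha8. Promoter sequence from RefSeq (build GRCr8) was matched for 6 of the 7 members, and the 250 bases before the annotated start were searched on both strands for 3 short words. These were GAGGAA, a core bound by the macrophage factor PU.1, GGAAGT, a core of the wider ETS family to which PU.1 belongs, and TGCTGA, a core bound by Maf factors. The first and second can overlap, since the last 4 letters of the first are the first 4 of the second. The 4 promoters below are shown because their RefSeq start is the outermost one of the gene. Whether these words go with the array values was not tested. Capitals mark a match to any of the 3 words on either strand.
C1qa, chr5:154419934-154420183, minus strand: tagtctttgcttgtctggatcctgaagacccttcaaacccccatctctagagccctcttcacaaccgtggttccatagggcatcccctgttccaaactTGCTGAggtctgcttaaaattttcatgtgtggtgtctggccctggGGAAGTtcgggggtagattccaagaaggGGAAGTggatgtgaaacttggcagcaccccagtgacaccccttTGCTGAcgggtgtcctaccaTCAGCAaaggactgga
C1qb, chr5:154407828-154408077, minus strand: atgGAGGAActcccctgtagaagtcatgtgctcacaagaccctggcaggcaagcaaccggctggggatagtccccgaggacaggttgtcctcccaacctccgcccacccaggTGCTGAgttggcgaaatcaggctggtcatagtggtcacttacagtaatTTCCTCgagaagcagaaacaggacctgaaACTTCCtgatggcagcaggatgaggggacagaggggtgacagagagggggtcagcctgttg
Cd68, chr10:54882442-54882691, minus strand: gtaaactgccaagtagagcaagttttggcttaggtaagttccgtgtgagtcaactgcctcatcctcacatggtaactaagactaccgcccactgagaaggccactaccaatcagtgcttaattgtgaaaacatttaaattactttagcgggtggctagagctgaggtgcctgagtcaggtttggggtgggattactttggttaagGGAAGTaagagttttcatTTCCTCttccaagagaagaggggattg
Mrc1, chr17:82157475-82157724, plus strand: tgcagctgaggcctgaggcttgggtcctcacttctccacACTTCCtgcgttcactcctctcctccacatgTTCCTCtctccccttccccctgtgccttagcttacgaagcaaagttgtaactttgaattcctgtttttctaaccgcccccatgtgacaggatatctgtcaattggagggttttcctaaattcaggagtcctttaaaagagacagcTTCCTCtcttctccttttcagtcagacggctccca
GAGGAA was found in 4 of the 6 members (Csf1r, C1qb, Cd68 and Mrc1), against 23.3% of 33469 promoters of the same length. GGAAGT was also found in 4 of 6 (C1qa, C1qb, Cd68 and Mrc1), against 19.2% of promoters, and 5 of 6 held either word, against 36.7%. TGCTGA was found in 2 of 6 (C1qa and C1qb), against 15.1% of promoters. The window of Cd163 held none of these words. The match nearest to the start was the TGCTGA of C1qa on the minus strand, 16 to 11 bases upstream, and that of Cd68 was a GAGGAA on the minus strand 27 to 22 bases upstream. These matches are descriptions of letters and do not show binding.

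Array medians lay between 6.96 and 7.05, and the tissue labels were checked with Tfap2b, a transcription factor of DA smooth muscle. Tfap2b was between 9.25 and 9.92 on the 4 DA arrays and between 5.51 and 6.75 on the 4 aorta arrays. Its DA minus aorta difference was 3.77 in F344 (limma adjusted p = 0.000516) and 3.32 in BN (adjusted p = 0.00259). All 11 smooth muscle markers tested were above the median of all values on every array. BN DA replicate 1 stood apart: the mean of 15 thymocyte and lymphocyte markers was 6.82 there and between 5.96 and 6.08 on the other 7 arrays. The BN DA arrays also differed most from each other, with an SD of the replicate difference over all genes of 0.349, against 0.196 to 0.258 in the other groups. The sizes of most members' differences that rest on this group are given below also without each of its arrays. Such a fit leaves 1 array in the group, and calls gained or lost that way appear mainly as counts at the end. In a bulk sample, fewer macrophages and less RNA per macrophage cannot be told apart.

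Csf1r showed the widest range among the members. Its levels were 8.01 and 7.70 in the F344 DA, 8.95 and 8.74 in the F344 aorta, 8.10 and 8.76 in the BN DA, and 9.46 and 9.29 in the BN aorta. Both aorta groups lay above the DA group of the same strain, and only the F344 aorta and the BN DA overlapped.

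The C1q chains followed a similar order but not the same spread. C1qa was at 7.18 and 7.34 in the F344 DA, 7.60 and 7.91 in the F344 aorta, 7.61 and 7.78 in the BN DA, and 8.32 on both BN aorta arrays. C1qb was at 7.86 and 7.69 in the F344 DA, 8.52 and 7.93 in the F344 aorta, 7.78 and 8.68 in the BN DA, and 8.42 and 8.39 in the BN aorta. C1qc was at 6.94 and 6.65 in the F344 DA, 7.54 and 7.47 in the F344 aorta, 7.63 and 7.59 in the BN DA, and 8.12 and 7.64 in the BN aorta. For C1qa only the F344 aorta and the BN DA overlapped, and for C1qc no neighbouring groups did. For C1qb the 2 arrays of the BN DA were 0.90 apart, the widest replicate gap of any member, and both other neighbouring pairs above the F344 DA overlapped.

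Cd68, the lysosomal protein, varied least between groups. It was at 6.78 and 7.0 in the F344 DA, 7.14 and 7.13 in the F344 aorta, 7.08 and 7.51 in the BN DA, and 7.19 and 7.32 in the BN aorta. It was the 1 member with its highest group mean in the BN DA and not in the BN aorta, and these groups overlapped.

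The receptors for mannose and for haemoglobin completed the set. Mrc1 was at 7.28 and 7.08 in the F344 DA, 8.09 and 7.52 in the F344 aorta, 7.70 and 8.39 in the BN DA, and 8.20 and 8.33 in the BN aorta. Cd163 was at 7.11 and 7.14 in the F344 DA, 7.57 and 7.28 in the F344 aorta, 7.29 and 7.68 in the BN DA, and 7.72 and 7.99 in the BN aorta. For Mrc1 the BN DA overlapped with both aorta groups, and for Cd163 it overlapped with the F344 aorta.

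**Figure D1:**
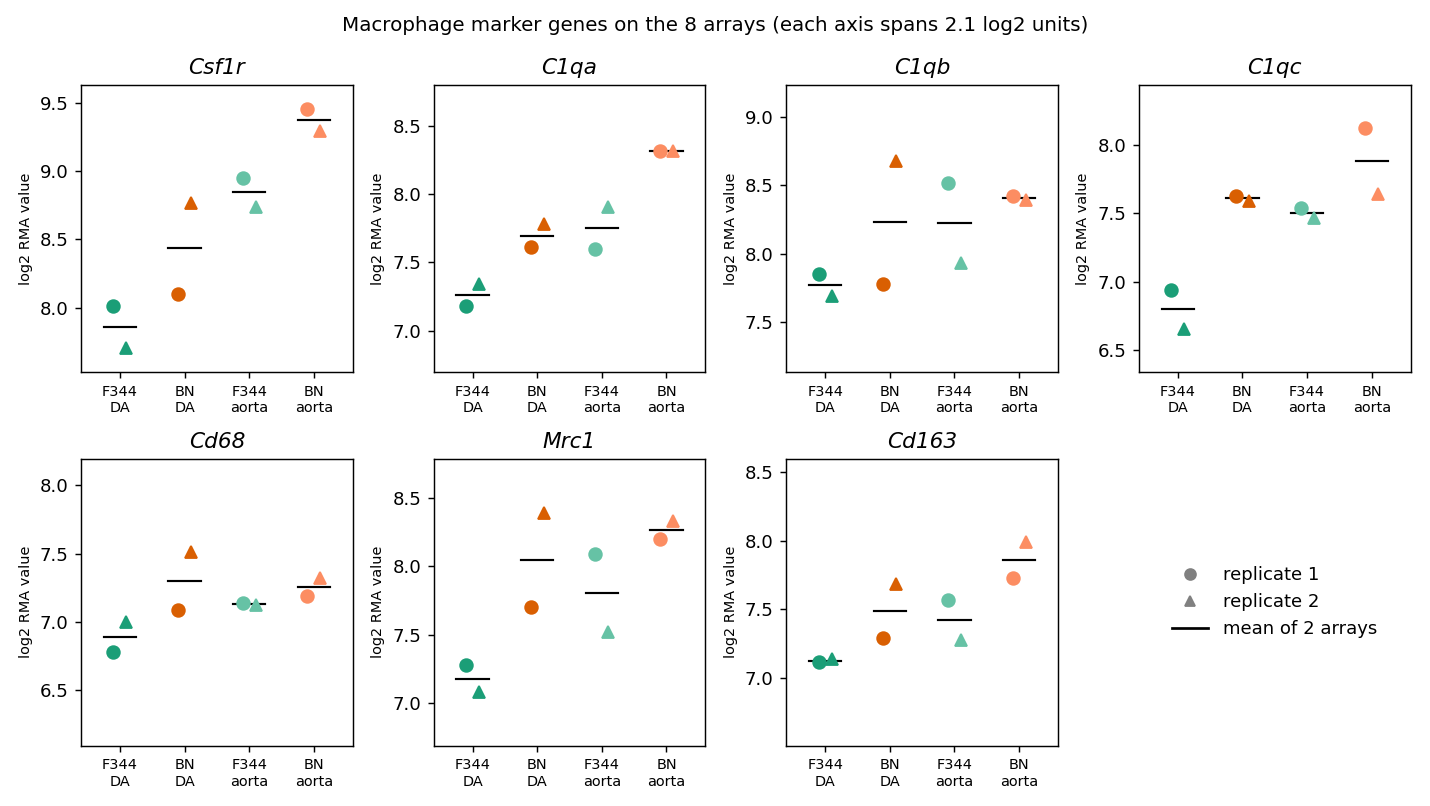
Log2 level of each of the 7 macrophage markers on the 8 arrays, by group; circles are replicate 1, triangles replicate 2 and short lines group means, and every panel spans the same 2.1 log2 units. The F344 DA has the lowest mean in all 7 panels, and the BN aorta the highest in 6.

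The F344 DA was the group with the lowest mean for 7 of 7 members. Both of its arrays lay below all 6 other arrays for 6 members, all but C1qb; the same was true of 16.8% of all genes. The mean over the 7 members was 7.31 and 7.23 in the F344 DA, 7.91 and 7.71 in the F344 aorta, 7.60 and 8.06 in the BN DA, and 8.20 and 8.18 in the BN aorta.

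Within F344 the question was how the DA differed from the aorta. Csf1r, C1qa and C1qc were lower in the DA, Csf1r by 1.98-fold and C1qc by 1.63-fold, and these 3 of 7 members passed the test, where 5.12% of all genes were called lower, 8.87% higher and 14% in either direction. The difference (DA minus aorta, log2) was -0.99 ± 0.21 (SE) for Csf1r, with a limma adjusted p of 0.0154. It was -0.71 ± 0.17 for C1qc (adjusted p = 0.0262) and -0.49 ± 0.14 for C1qa (adjusted p = 0.0497). The other 4 members did not pass: Mrc1 differed by -0.63 ± 0.24 (adjusted p = 0.121), C1qb by -0.45 ± 0.28 (0.302), Cd163 by -0.30 ± 0.17 (0.275) and Cd68 by -0.24 ± 0.16 (0.34). Both DA arrays were below both aorta arrays for all 7 members, an arrangement that 37.8% of all genes also had, while 29.6% had the opposite one. The median difference of the members was -0.49, against -0.04 over all genes and -0.16 over the 8506 genes brighter than the median of all values. When each array was centred on those brighter genes, the median of all genes moved by 0.21 and only Csf1r was called (-0.77, adjusted p = 0.0468). Under that centring the share of higher among all calls went from 63.4% to 87.8%, and 2.11% of genes were called lower. The call for Csf1r was also lost without F344 DA replicate 2 (adjusted p = 0.131), without F344 aorta replicate 1 (0.118) and without F344 aorta replicate 2 (0.0548), where its difference was between -0.83 and -1.09. C1qc lost its call without any 1 of the 4 F344 arrays, with a highest adjusted p of 0.197, and C1qa in 11 of 19 alternatives, with a highest adjusted p of 0.313.

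Within BN the differences of Csf1r and C1qa were of similar size, but 0 of 7 members passed the test by limma. Here 1.81% of all genes were called in either direction, and 0.82% of all genes were called lower. An unadjusted limma p under 0.05 was reached by 2 members and by 14% of all genes. Csf1r differed by -0.94 ± 0.21 (adjusted p = 0.0666) and C1qa by -0.62 ± 0.14 (0.07). Cd163 differed by -0.37 ± 0.17 (0.373), C1qc by -0.27 ± 0.17 (0.575), Mrc1 by -0.22 ± 0.24 (0.786), C1qb by -0.17 ± 0.28 (0.87) and Cd68 by 0.04 ± 0.16 (0.956). Both DA arrays were below both aorta arrays for 4 members, as for 18.5% of all genes, and Cd68, Mrc1 and C1qb overlapped. The median of the members was -0.27 and that of all genes was 0.00. Without BN DA replicate 2, Csf1r was at -1.27, C1qb at -0.62, Mrc1 at -0.56, Cd163 at -0.57 and Cd68 at -0.17. With replicate 1 left out instead, Csf1r was at -0.61 and Cd163 at -0.18, Cd68 was at 0.25, and the signs of C1qb (0.27) and Mrc1 (0.13) turned.

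The test of the difference between strains in the tissue contrast (interaction, DA minus aorta in BN less the same in F344) called 0 of 7 members, with 0 at an unadjusted p under 0.05. It called 0 of 14506 genes by limma (0%), with 1403 at an unadjusted p under 0.05. For Csf1r the interaction was 0.04 with a 95% confidence interval of -0.63 to 0.72, and for C1qc it was 0.44 with an interval of -0.12 to 0.99. These intervals are wide, so the calls in F344 and their absence in BN do not show that the strains differed. Averaged over the strains, Csf1r was lower in the DA by 0.96 ± 0.15 (adjusted p = 0.00293), C1qa by 0.56 ± 0.10 (0.00585) and C1qc by 0.49 ± 0.12 (0.025). These 3 of 7 members stood beside 6.47% of all genes called lower, 10.1% called higher and 16.6% called in all. The calls for Csf1r and C1qa held in 18 of 18 alternatives at the same threshold, and that for C1qc was lost in 5. Without BN DA replicate 2, C1qb was at -0.54, Mrc1 at -0.59 and Cd163 at -0.43. Without BN DA replicate 1, C1qb was at -0.0898, Mrc1 at -0.25, Cd163 at -0.24 and Cd68 at 0.00495. With all arrays the other 4 were not called: Cd163 differed by -0.34 (adjusted p = 0.0923), Mrc1 by -0.42 (0.13), C1qb by -0.31 (0.314) and Cd68 by -0.10 (0.591).

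**Figure D2:**
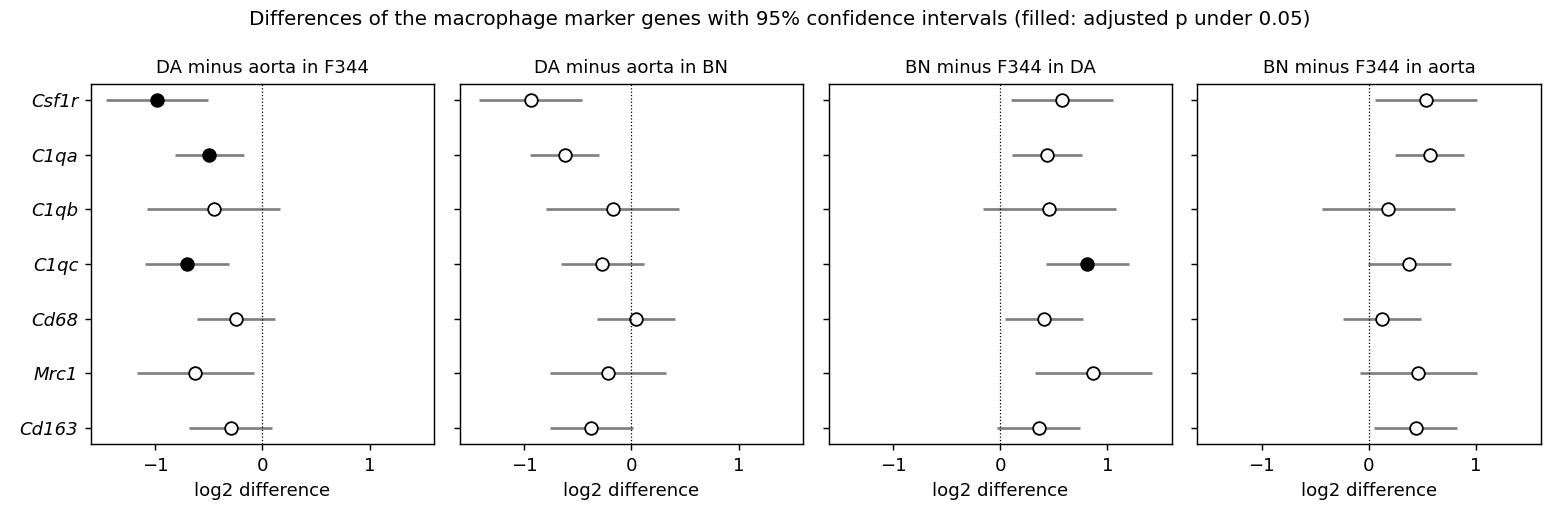
Log2 difference of each member in the 4 comparisons of 2 groups, with 95% confidence intervals from the limma fit; filled points passed at an adjusted p under 0.05. All 7 DA minus aorta differences in F344 are below 0 and all 7 BN minus F344 differences are above 0 in both tissues, and 4 of the 28 points are filled.

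Between strains in the DA, C1qc was 1.76-fold higher in BN than in F344, a difference of 0.81 ± 0.17 (limma adjusted p = 0.0336). It was the 1 of 7 members to pass, where 2.43% of all genes were called higher in BN and 4.53% in either direction. This comparison and the tissue comparison in F344 share the F344 DA arrays, so their results are not independent. Mrc1 differed by 0.87 ± 0.24 (adjusted p = 0.0713), Csf1r by 0.58 ± 0.21 (0.148), C1qb by 0.46 ± 0.28 (0.366), C1qa by 0.44 ± 0.14 (0.109), Cd68 by 0.41 ± 0.16 (0.172) and Cd163 by 0.36 ± 0.17 (0.252). Both BN arrays were above both F344 arrays for 6 members, as for 25.9% of all genes, and C1qb overlapped. The median was 0.46 in the members and -0.003 over all genes.

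The sizes of the members' differences in this comparison depended on single arrays. Without BN DA replicate 1, the array with the high thymocyte markers, Mrc1 differed by 1.21 and Csf1r and C1qb by 0.91 each. C1qc was then at 0.80 and Cd68 at 0.62. With replicate 2 left out instead, C1qc was at 0.83 and Mrc1 at 0.53. Csf1r was then at 0.25, Cd68 at 0.19, Cd163 at 0.16 and C1qb at 0.0098. Replicate 1 was below replicate 2 for 6 of 7 members, by a median of 0.43, with C1qc as the exception. The part of the lymphocyte signal in these values was not tested. The call for C1qc was lost in 9 of 19 alternatives, with a highest adjusted p of 0.238, among them centring on the brighter genes (0.67, adjusted p = 0.0566), which moved the median of all genes by -0.14 and the share of higher among all calls from 53.7% to 23.7%.

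**Figure D3:**
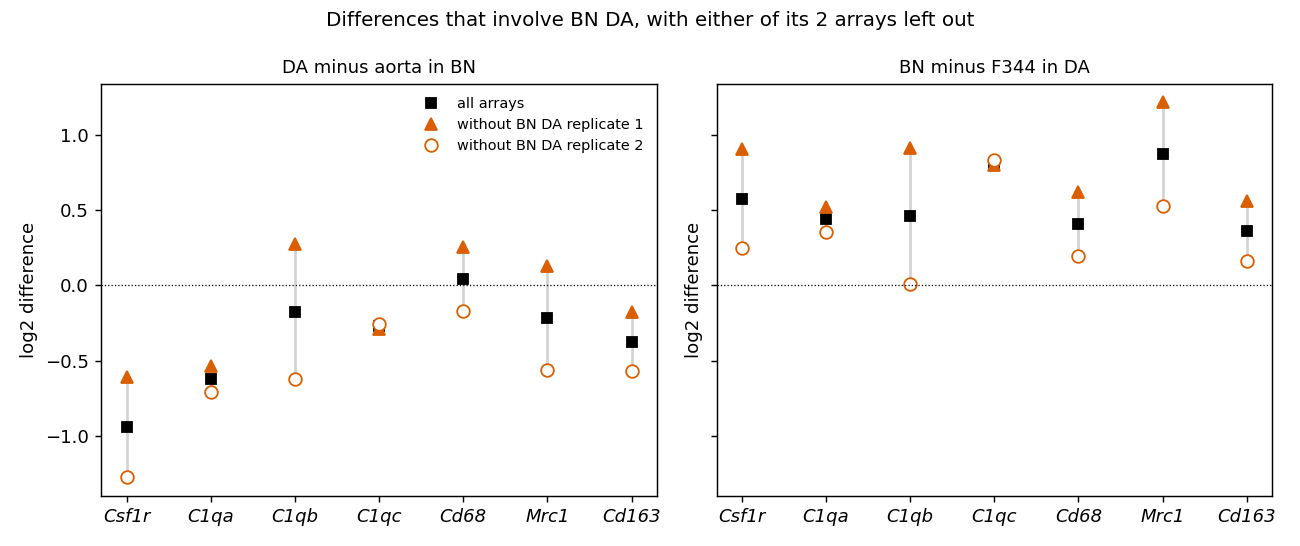
Log2 difference of each member in DA minus aorta in BN (left) and BN minus F344 in the DA (right), with all arrays (squares) and without BN DA replicate 1 (triangles) or replicate 2 (open circles). All differences on the right stay above 0, while on the left those of C1qb and Mrc1 turn positive without replicate 1 and that of Cd68 turns negative without replicate 2.

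Between strains in the aorta, 0 of 7 members passed by limma, beside 0.159% of all genes called (0.0827% higher and 0.0758% lower). An unadjusted limma p under 0.05 was reached by 3 members and by 5.22% of all genes. The differences (BN minus F344) were 0.56 ± 0.14 for C1qa (adjusted p = 0.389), 0.53 ± 0.21 for Csf1r (0.875), 0.46 ± 0.24 for Mrc1 (0.998), 0.44 ± 0.17 for Cd163 (0.844) and 0.38 ± 0.17 for C1qc (0.962). C1qb differed by 0.18 ± 0.28 and Cd68 by 0.12 ± 0.16, each with an adjusted p of 0.998. Both BN arrays were above both F344 arrays for 6 members, as for 17.9% of all genes. Their median was 0.44, against -0.003 over all genes. Averaged over the tissues, C1qa was higher in BN by 0.50 ± 0.10 (adjusted p = 0.0392) and C1qc by 0.59 ± 0.12 (0.0402). These 2 of 7 stood beside 1.63% of all genes called higher and 2.65% called in all, and each call was lost in 7 of 18 alternatives. Without BN DA replicate 1, Csf1r was at 0.72, C1qb at 0.54, Mrc1 at 0.84 and Cd163 at 0.50. With replicate 2 left out instead, Csf1r was at 0.39, C1qb at 0.0948, Mrc1 at 0.49, Cd163 at 0.30 and Cd68 at 0.16. With all arrays Mrc1 (0.66, adjusted p = 0.0746), Csf1r (0.55, 0.0862), Cd163 (0.40, 0.115), Cd68 (0.26, 0.248) and C1qb (0.32, 0.421) were not called.

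Other genes of macrophages and phagocytes were read from a list of 29 tested genes. Over all genes, 5.12% were called lower in the DA of F344, 0.82% in that of BN and 6.47% averaged over the strains. Averaged over the tissues, 1.63% were called higher in BN. Negative tissue differences made up 55.6% of all genes in F344 and 50.2% in BN. In the F344 DA, 3 of the 29 were lower than in the aorta and 0 higher: Laptm5, a lysosomal membrane protein of blood cells (-0.62, limma adjusted p = 0.0109), Ctss, the protease cathepsin S (-0.59, 0.0349), and Tyrobp, the adaptor of several myeloid receptors (-0.52, 0.0453). Of the 29 differences 24 were negative, with a median of -0.30. In BN 1 was lower, Ctss (-1.19, 0.00865), and 24 were again negative, with a median of -0.24. Ctss was at 8.36 and 8.33 in the F344 DA, 9.11 and 8.76 in the F344 aorta, 8.16 and 8.45 in the BN DA, and 9.55 and 9.44 in the BN aorta. The DA arrays of the 2 strains overlapped for Ctss, while both aorta groups were above the DA of their strain. Averaged over the strains 8 were lower in the DA and 0 higher, with Lyz2, the lysozyme of myeloid cells (-0.92, 0.0113), Ctss (-0.89, 0.00104) and Cd53, a tetraspanin of leukocytes (-0.71, 0.00875), as those with the largest differences. Between strains 0 of the 29 passed in either tissue. Their medians (BN minus F344) were 0.12 in the DA, where Fcer1g differed by 0.72 (0.0585) and Laptm5 by 0.49 (0.0577), and 0.17 in the aorta, where Cd53 differed by 0.75 (0.43). Averaged over the tissues Laptm5 was higher in BN (0.41, 0.0441). Many of these probe sets were dim: 13 of the 29 were below the median of all values on all 8 arrays.

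Genes of resident-type, perivascular macrophages were counted over 16 tested genes. Over all genes, 2.43% were called higher in BN between strains in the DA, and 8.87% higher in the DA of F344. Negative differences made up 55.6% of all genes in the F344 tissue comparison and 50.7% between strains in the aorta. Lyve1, a hyaluronan receptor, and F13a1, the A subunit of clotting factor XIII, were higher in the BN DA than in the F344 DA, by 1.78 ± 0.39 (adjusted p = 0.0368) and 1.31 ± 0.28 (0.0347), and 0 were lower. The list as a whole did not move that way: 9 of the 16 differences were positive and 7 negative, with a median of 0.06. Lyve1 was at 8.21 and 8.19 in the F344 DA, 9.75 and 8.81 in the F344 aorta, 9.39 and 10.57 in the BN DA, and 9.18 and 9.71 in the BN aorta. F13a1 was at 7.50 and 7.09 in the F344 DA, 8.57 and 7.86 in the F344 aorta, 8.29 and 8.92 in the BN DA, and 8.62 and 9.02 in the BN aorta. Both F344 DA arrays were the lowest of the 8 for both genes, as for 16.8% of all genes. Both were named because they were called higher in the BN DA than in the F344 DA, so this order was partly set by the choice. Without BN DA replicate 2 neither call held (Lyve1 1.19, adjusted p = 0.0539; F13a1 0.99, 0.06), and each was also lost without either F344 DA array. In the tissue comparison of F344, 1 of 16 passed: Mertk, a receptor for dying cells, was higher in the DA (0.49, 0.047), while 13 of 16 differences were negative, with a median of -0.24. In BN 0 of 16 passed, with a median of -0.17, where Slc40a1, the iron exporter, differed by -0.59 (0.0751) and Gas6, a ligand of Mertk, by -0.58 (0.104). In the aorta 0 passed between strains, with 15 of 16 positive and a median of 0.09 (F13a1 0.61, adjusted p = 0.965). F13a1 was also higher in BN averaged over the tissues (0.96, 0.0409).

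Among ligands and signalling partners of Csf1r, 13 genes were tested. In the F344 DA 5 were lower and 1 higher than in the aorta, beside 5.12% and 8.87% of all genes. Tyrobp, already counted above with the macrophage genes, was 1 of the 5. The ligand Csf1 itself was lower by 0.98 ± 0.18 (adjusted p = 0.00741), Plcg2, a phospholipase, by 0.85 (0.0188), and Inpp5d and Adam17 were also among the 5, while the transcription factor Runx1 was higher by 0.69 (0.00955). Csf1 was at 8.98 and 8.72 in the F344 DA, 9.94 and 9.71 in the F344 aorta, 9.06 and 9.51 in the BN DA, and 10.05 and 9.89 in the BN aorta. All 4 aorta arrays were above all 4 DA arrays, and averaged over the strains Csf1 was lower in the DA (-0.83, adjusted p = 0.0025). The other ligand, Il34, stayed between 5.78 and 6.16 on all arrays. In BN and between strains 0 of the 13 passed in each comparison (in BN Tyrobp -0.60, adjusted p = 0.0842; Csf1 -0.68, 0.1). The call for Csf1 in F344 was lost without F344 DA replicate 2 (adjusted p = 0.0753) or F344 aorta replicate 1 (0.0716).

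Complement partners of C1q were read from 18 tested genes. Over all genes, 5.12% were called lower and 8.87% higher in the DA of F344. In BN 0.986% were called higher and 0.82% lower in the DA, and between strains in the DA 2.43% were higher in BN. In F344, Cd93, a receptor once described as binding C1q and carried by endothelium and myeloid cells, was lower in the DA (-0.63, adjusted p = 0.0255), and Cfi, a protease that inactivates complement, was higher (0.46, 0.0404), a difference that was 0.17 after repeated quantile normalization (adjusted p = 0.381) and 0.21 after cyclic loess (0.293). Of the 18 differences 15 were negative, with a median of -0.24, where 55.6% of all genes were negative. In BN, Cd55, an inhibitor of complement on cell surfaces, was higher in the DA (0.96, 0.0439) and 0 were lower. Between strains in the DA, Cd93 (0.68, 0.0418) and Cfp, the properdin of the alternative pathway (0.63, 0.0382), were higher in BN, with a median of 0.15, and 0 passed in the aorta. Of 24 tested genes of the C1q and collectin families, C1qtnf3 was lower in the DA of F344 (-0.72, 0.00922) and of BN (-0.68, 0.045). Col8a1, a short-chain collagen with a C1q-like domain, had the largest difference in the list and was also lower in the DA of F344 (-3.07, 0.000407) and of BN (-2.23, 0.00483). These 2 were the genes called lower in each strain, C1qtnf1 was higher in F344 (1.03, 0.0269), and between strains in the DA C1qtnf7 was higher in BN (0.70, 0.0424). In that strain comparison 17 of the 24 differences were negative, with a median of -0.13.

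Lists were also read that match the roles of Cd68, Cd163 and Mrc1, beside 14% of all genes called in F344, 1.81% in BN and 4.53% between strains in the DA. Of 25 lysosomal genes 1 was lower in the F344 DA than in the aorta, the protease Ctsl (-0.66, adjusted p = 0.0488), while 23 differences were negative, with a median of -0.16. Genes brighter than the median of all values, as 24 of these 25 were, had a median of -0.16 in F344 and -0.04 in BN. Over all genes 55.6% of the differences were negative in F344 and 50.2% in BN. In BN 0 passed, with 22 negative and a median of -0.21, and between strains 0 passed in the DA (Lamp3 -0.49, 0.108; Lipa 0.40, 0.122). Of 18 genes of haem and haemoglobin handling, the transporter Slco2b1 (-0.66, 0.0149) and the ferrireductase Steap3 (-0.66, 0.0304) were lower in the F344 DA, Steap3 was lower in the BN DA (-0.81, 0.0481), and 0 passed between strains in the DA. Of 15 genes of the mannose and scavenger receptor families, Scara5 was lower in the DA of F344 (-1.06, 0.00219) and of BN (-0.77, 0.0338), and Ssc5d was higher in the F344 DA (0.70, 0.0156). Scara5 is also on the list of fibroblast markers below and is counted in both. Cd36, a lipid receptor of macrophages, platelets and capillary endothelium, was higher in the BN DA than in the F344 DA (2.03, 0.0303). In this comparison 8 of the 15 differences were negative, with a median of -0.13. The values of Cd36 were 6.08 and 5.58 in the F344 DA, 7.11 and 5.82 in the F344 aorta, 7.46 and 8.26 in the BN DA, and 7.04 and 7.63 in the BN aorta.

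Markers of other cell types moved in the same comparisons. Over all genes, 5.12% were called lower and 8.87% higher in the DA of F344, and 55.6% of the differences were negative. In BN 0.82% were called lower and 0.986% higher in the DA, and between strains in the DA 2.43% were higher in BN. In F344, 6 of 14 blood endothelial markers were lower in the DA and 0 higher, among them Sox17 (-1.08, adjusted p = 0.00145) and Cldn5 (-0.93, 0.0138), with all 14 negative and a median of -0.36. The mean of these markers was 8.41 and 8.33 in the F344 DA and between 8.70 and 8.88 on the other 6 arrays. Of 10 fibroblast markers 3 were lower in the F344 DA and 1 higher: the largest difference was that of Dpep1, which was higher (1.94, 0.00808), while Pi16 (-1.34, 0.0198) and Pdgfra (-1.08, 0.00899) were among the lower. In BN 3 were lower, among them Pdgfra (-1.05, 0.0409) and Scara5, given above. Of 11 smooth muscle markers 3 were higher in the F344 DA and 0 lower, with a median of 0.25, and 0 passed in BN, with a median of 0.22. Between strains in the DA, 4 of 7 lymphatic endothelial markers were higher in BN, with a median of 1.06: Ccl21 (1.87, 0.0336), Lyve1, which resident macrophages also carry, Prox1 (1.06, 0.0259) and Flt4. In the tissue comparisons 1 of the 7 was higher in the DA of each strain and 0 lower. Their mean was 8.65 and 8.55 in the BN DA and between 7.38 and 7.99 on the other 6 arrays. Blood endothelial Sox17 (0.63, 0.0326) and Flt1 (0.65, 0.0288) were also higher in the BN DA. The part of these cell types in the members' differences was not tested.

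**Figure D4:**
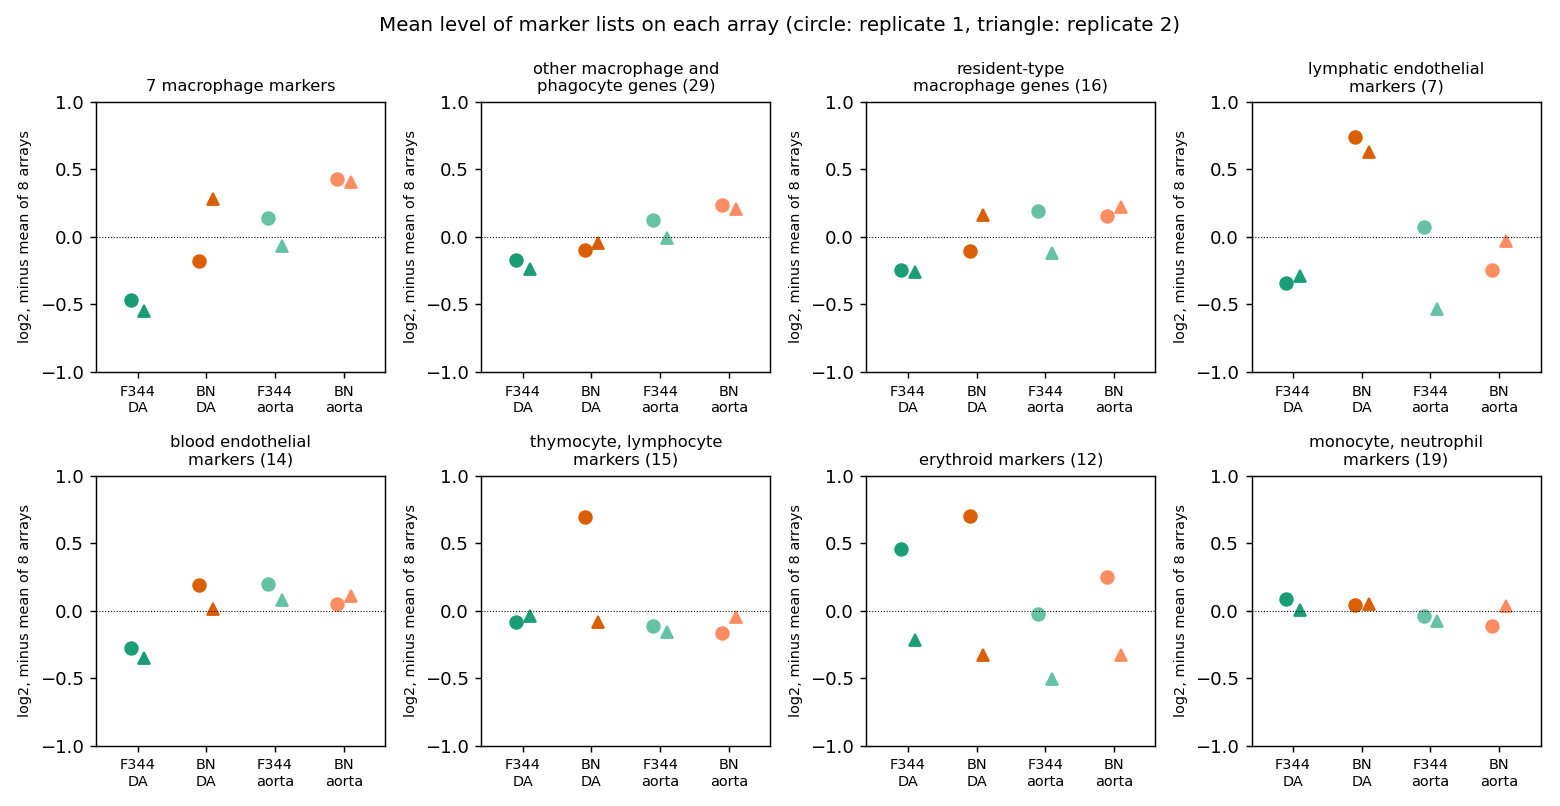
Mean log2 level of 8 marker lists on each array, less the mean of the 8 arrays, by group; circles are replicate 1, triangles replicate 2, and brackets give the genes tested. Blood endothelial markers are lowest in the F344 DA, lymphatic markers highest in the BN DA, and thymocyte and lymphocyte markers highest on BN DA replicate 1.

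Many probe sets for markers of other leukocytes were dim. Over all genes, 14% were called in the F344 tissue comparison and 4.53% between strains in the DA. Of 19 monocyte and neutrophil markers, 16 were below the median of all values on all 8 arrays; Fpr1 was higher in the F344 DA than in the aorta (0.69, adjusted p = 0.0202), and Lcn2, which epithelia also make, was higher in BN in the DA (1.76, 0.0126; aorta 1.34, 0.133). Of 13 dendritic cell and MHC class II genes, Xcr1 was higher (0.73, 0.0155) and Zbtb46 lower (-0.44, 0.047) in the F344 DA, and RT1-Ba differed between strains by 0.95 in the DA (0.0791) and 1.09 in the aorta (0.386). Of 10 mast cell markers 0 passed in any of the 4 comparisons of groups, and 9 were below the median of all values on all 8 arrays. Of 15 thymocyte and lymphocyte markers the 1 that passed in the comparisons of groups was Cd4, which rat macrophages also carry: it was lower in the F344 DA than in the aorta (-0.72, 0.0453) and higher in the BN DA than in the F344 DA (1.01, 0.0295). Of 12 erythroid markers 0 passed in these comparisons, and replicate 1 had the higher mean of them in all 4 groups, by the most in the BN DA (8.36 and 7.33).

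The calls of list genes were recomputed with each array left out. Of 26 named list genes called in the F344 tissue comparison, 3 kept their call with any 1 of the 8 arrays left out (Scara5, Sox17 and Col8a1). Of 12 called between strains in the DA, 0 did: all 12 lost it without either F344 DA array. When BN DA replicate 1 was left out, Cd93 (0.49, adjusted p = 0.0938) and C1qtnf7 (0.51, 0.0953) lost their calls, and Ccl21 was at 1.2 (0.042). When replicate 2 was, Lyve1, F13a1, Cfp (0.53, 0.0707), Flt1 (0.54, 0.0513) and Sox17 (0.49, 0.0624) lost theirs. Cd36, Lcn2, Cd4, Ccl21 and Prox1 kept theirs without either BN DA array. Of 7 called in the BN tissue comparison 0 kept their call throughout, and all 7 lost it without BN aorta replicate 1. Cd55, C1qtnf3 and Scara5 lost it without BN DA replicate 1, and Steap3 without replicate 2, while Ctss, Pdgfra (-0.68 without replicate 1) and Col8a1 kept it without either. Averaged over the strains, Ctss, Cd53 and Csf1 kept their calls with any 1 array left out, and Lyz2 lost its call without F344 DA replicate 2. Averaged over the tissues, Laptm5 and F13a1 lost theirs without any 1 of the 6 arrays other than the BN DA arrays.

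Across the 8 arrays the members varied together. Over the 21 pairs Pearson's r ranged from 0.56 (C1qa with C1qb) to 0.93 (Mrc1 with Cd163), with a median of 0.82. The arrays share the same 4 groups, so these values describe the group pattern and carry no test. Among 3581 genes brighter than the median and with an SD of at least 0.2, those most like the mean of the 7 members were Sptbn1 and Tfpi (r = 0.99 each), followed by Nkain3, Egln1, Ntrk3, Jam3, Pcdh18 and Map2k6. An r of at least 0.9 was reached by 182 candidates (5.08%), and the median r was 0.43. Of 7 candidates from the list of other macrophage genes, 4 had an r of at least 0.8, as had 16.5% of all candidates, with a median of 0.91 and Laptm5 highest (0.95). Of 8 fibroblast candidates 4 also had an r of at least 0.8, with Cd34, which endothelium carries too, highest (0.95) and a median of 0.69. Tyrobp (0.94) and F13a1 (0.93) were close to it, while Mertk was at -0.40. For single members the closest candidates were Nid2, Pmp22 and Klhdc10 for Csf1r, Kcnt2, Kcnab1 and Scpep1 for C1qa, and Dcn, Dnmt1 and Nlgn3 for C1qb. They were Ccpg1, Cox4i2 and Heatr5a for C1qc, Zfp879, Spast and Cbx5 for Cd68, F13a1, Ssr1 and Lcp2 for Mrc1, and Slc16a7, Fam20b and Flrt2 for Cd163.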

How the data were processed

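Values are log2 signals as deposited by the authors, taken as log2 from their range (1.07 to 14.15). RMA, per the submitters' processing notes, made them: it is a method of background correction, normalization between arrays and probe summary. Its version, its settings and the annotation's build are not stated there. Of 29215 probe sets, 15310 had 1 symbol, 323 several and 13582 none listed; for 527 genes with several probe sets the brightest was kept. No measure of depth applies to arrays, and their number limits the precision.

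Differences were tested with limma 3.58.1 in R 4.3.3: 4 group means over all 8 arrays, eBayes (5.25 prior and 4 residual degrees of freedom), two-sided, Benjamini-Hochberg adjusted over 14506 genes and called under 0.05. All adjusted p-values in the text are from this fit or its alternatives. Errors of differences are standard errors. The fit was tested on simulated data with independent normal noise, equal group means and upward shifts in the F344 DA only. In the F344 tissue comparison, the test recovered 82% of 100 genes shifted by 1 (log2) and 97% of 100 shifted by 2. In the interaction these shares were 44% and 86%. Genes not shifted made up 4.28% and 5.11% of the calls. On the real arrays 14% of genes were called in F344, so these shares need not hold for the members.

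The members and the 18 other lists (269 tested genes with the members) were chosen with earlier results of these data known. The text names all members. From each list it may name up to 3 called genes with the largest difference or, with none called, up to 2 with the smallest p. It also names the 8 genes most correlated with the members' mean and 3 for each member. Tfap2b checked the tissue labels, and Ctss, Lyve1, F13a1, Csf1, Il34 and Cd36 were chosen for printing by array, and some other list genes for naming, after values were seen. Alternatives were 3 normalizations, filters, fit options, a 2-fold minimum, a replicate block and each array left out.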

Additional observations from a re-analysis of the deposited data

How the results depend on the processing

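Of 137 recomputed counts of members called, 105 were within 1.5 times the count reported and 32 were not. Many of the 105 are 0 against 0, and the 32 fell mostly where members were called. For DA minus aorta in F344 (3 members called) the count was 1 after cyclic loess and 1 after centring on brighter genes, 0 with a 2-fold minimum, and 0 to 4 with 1 array left out. For DA minus aorta in BN (0 called) it was 1 with the replicate number as a block and 0 to 1 with 1 array left out. For BN minus F344 in the DA (1 called) it was 0 after cyclic loess, centring, array weights, fitting only the arrays compared or a 2-fold minimum, 2 with the replicate block, and 0 to 4 with 1 array left out. For the tissue difference averaged over strains (3 called) it was 0 with a 2-fold minimum and 2 to 6 with 1 array left out. For the strain difference averaged over tissues (2 called) it was 1 after cyclic loess, 0 after centring or with a 2-fold minimum, and 0 to 6 with 1 array left out. For BN minus F344 in the aorta and the interaction (0 called) it was 0 throughout.

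The labels do not say that a replicate number marks a shared litter or day, and correlations of same-numbered deviations were positive in all 6 pairs of groups, from 0.0279 to 0.521, with 5 of 6 over 0.1. With 2 replicates and not all pairs over 0.1 the block was kept as an alternative, and whether the numbers mark a shared source was not tested further. The calls gained with the replicate block were C1qa in DA minus aorta in BN (-0.62, adjusted p = 0.0268) and in BN minus F344 in the DA (0.44, 0.0482). Over all genes, the counts called with 1 array left out were 646 to 2850 for DA minus aorta in F344 (2028 with all arrays) and 13 to 1233 for BN minus F344 in the DA (657), and 0 to 69 for the aorta (23). They were 16 to 600 for DA minus aorta in BN (262) and 0 to 56 for the interaction (0). With the other alternatives these ranges were 1000 to 3710, 118 to 1583, 18 to 56, 16 to 548 and 0 to 2. The averaged comparisons ranged from 1328 to 3218 (2403) for tissue and from 220 to 966 (384) for strain, and with 1 array left out from 1361 to 3184 and from 55 to 1015. Centring also moved the share of higher among all calls from 54.6% to 65.3% in BN, from 60.9% to 83.6% for the averaged tissue difference and from 61.5% to 37.3% for the averaged strain difference, where cyclic loess gave 51.1%.

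Of 910 recomputed differences of single members, 824 kept direction and call, 48 lost a call, 18 gained one and 20 changed sign. Most of the 910 belong to differences not called with all arrays, with no call to lose. All 48 losses fell on the few called, so the 824 do not measure how stable the calls were. In DA minus aorta in BN, the sign of C1qb turned without BN DA replicate 1 (range with 1 array left out -0.62 to 0.27), as did that of Mrc1 (-0.56 to 0.13), and that of Cd68 turned without BN DA replicate 2 or BN aorta replicate 1 (-0.17 to 0.25). In the aorta C1qb turned without F344 aorta replicate 2 (-0.11 to 0.47). The averaged tissue difference of Cd68 was 0.034 after centring, and it turned without BN DA replicate 1 (-0.21 to 0.00495). The interaction of Csf1r was -0.057 after repeated quantile normalization, -0.092 after cyclic loess and -0.11 after centring. With 1 array left out it ranged from -0.29 to 0.38, below 0 without F344 DA replicate 2, F344 aorta replicate 1, BN DA replicate 2 or BN aorta replicate 2. The interaction of C1qa ranged from -0.28 to 0.025 (above 0 without F344 aorta replicate 1), that of C1qb from -0.17 to 0.73 (below 0 without BN DA replicate 2 or F344 aorta replicate 1) and that of Cd163 from -0.27 to 0.12 (above 0 without F344 aorta replicate 2, BN DA replicate 1 or BN aorta replicate 2). The cause was not tested. Of 1317 recomputed differences of 70 named list results, 1007 kept direction and call, 292 lost a call, 18 gained one and 0 changed sign. Here too, results not called had no call to lose. With 2 arrays a group, a lone remaining array is assumed to vary like the other groups.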
